A study of Mus musculus with 8 samples.

Results

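The Gimap genes encode the GTPases of immunity-associated proteins, a vertebrate family of small guanine nucleotide binding proteins that lie side by side in 1 gene cluster. The members described here are Gimap1, Gimap3, Gimap4, Gimap5, Gimap6, Gimap8 and Gimap9, that is 7 of the 19879 gene names counted in this series. They were taken by name from the count table of each of 8 libraries. GIMAP proteins sit on the membranes of organelles of blood cells and are best known from lymphocytes, where loss of single members shortens the life of T and B cells. In mice Gimap5 is also needed for lasting haematopoietic stem cells. Part of the family is tied in the literature to Bcl-2 family proteins and to the Atg8 proteins of autophagy.

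The libraries hold single bone marrow progenitor cells of mice, read with CEL-Seq2, which tags each captured transcript near its 3′ end with a molecular identifier. Mof (now Kat8) encodes a histone lysine acetyltransferase, and the genotype comparison asks what follows when 1 copy is missing. The 4 groups are heterozygous (Mof -/+) HSC, wild type HSC, heterozygous plate2 and wild type plate2, with 2 libraries each. The HSC libraries are titled for haematopoietic stem cells, for which the design text gives the gate LSK+CD34-Flt3-CD48-CD150+. The plate2 libraries carry no gate, and the design text names further erythroid, megakaryocyte and granulocyte-monocyte progenitor gates. The labels give no age, sex or strain and do not say how the Mof allele was made. They also do not tie libraries to animals, and the spread between libraries, on which every p-value rests, may therefore be technical.

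Wells with 1000 or more transcripts were taken as cells, which left 230 heterozygous and 206 wild type cells. The heterozygous HSC libraries summed to 244109 and 201017 transcripts, against 99253 and 103010 in the wild type HSC libraries. The heterozygous plate2 libraries summed to 630053 and 677862 transcripts, against 733925 and 424490 in wild type. The median HSC well held 2921 and 2977 transcripts in heterozygotes, against 1600 and 1566.5 in wild type. In each library 1 block of 96 barcodes, its own, held most transcripts. Transcripts outside it made up 8.12% and 8.89% in heterozygous HSC and 13.6% and 13.1% in wild type HSC libraries. In plate2 they made up 3.41% and 2.29% in heterozygous and 4.11% and 5.37% in wild type libraries. Between libraries with different own barcodes, kept barcode numbers in common ran from 0 to 14 per pair. Pairs with the same own barcodes were not compared, and the cause was not tested. Kat8 itself was counted 1 and 2 times in heterozygous HSC, 1 and 2 times in wild type HSC, 9 and 12 times in heterozygous plate2 and 10 and 4 times in wild type plate2 libraries, too few to check the genotype labels. The 15 stem cell markers summed to between 3436 and 4467 CPM (counts scaled to a total of 1000000 kept transcripts) in the 4 HSC libraries and to between 740.6 and 1331 CPM in the 4 plate2 libraries. Mature neutrophil markers differed by library, with 1131 and 2134 CPM in heterozygous HSC libraries 1 and 2, against 5370 and 38.8 CPM in wild type HSC libraries 1 and 2.

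The cluster occupies 123.6 kb of mouse chromosome 6, chr6:48647234-48770851 on GRCm38, in the order Gimap8, Gimap9, Gimap4, Gimap6, Gimap1, Gimap5 and Gimap3. All are protein coding, and Gimap6 and Gimap3 lie on the minus strand. Gimap1 (chr6:48739054-48743795) overlaps the antisense gene Gimap1os by 2391 bases. No source used here says whether counting used strand, so reads of Gimap1 and Gimap1os cannot be told apart within the overlap. Gimap1os was counted 19 times over all kept cells, against 324 times for Gimap1. The read-through model Gm28053 spans all of Gimap1 and part of Gimap5 and has no row of its own. The last 500 bases of the members' longest transcripts shared no stretch of 50 bases with one another.

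**Figure D1:**
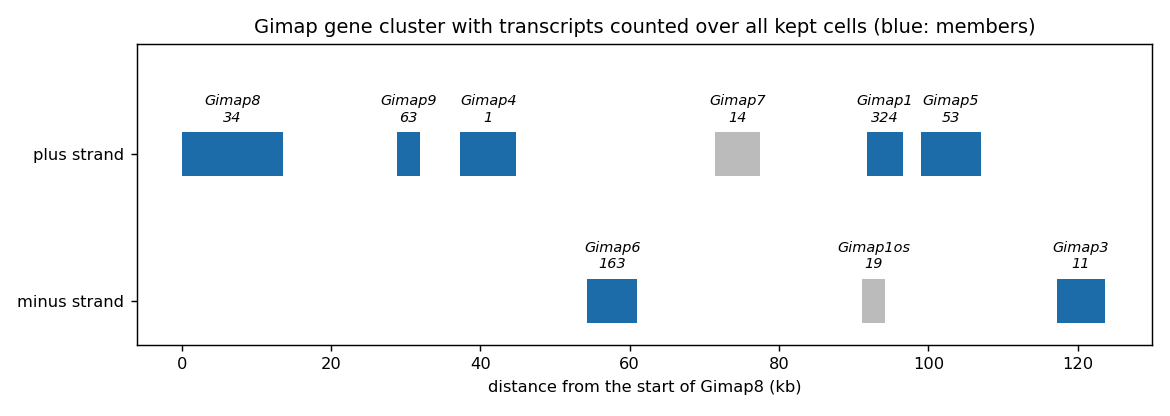
Map of the Gimap cluster. The horizontal axis gives the distance from the start of Gimap8 in kb, rows give the strand, blue boxes are the members, grey boxes are Gimap7 and Gimap1os, and the number under each name is its transcripts over the 436 kept cells. Gimap1 with 49.9% and Gimap6 with 25.1% of the members' transcripts carry most of the counts.

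The upstream sequences of the 2 most counted members and of Gimap9 are shown because Gimap1 and Gimap6 carry most of the results and Gimap9 differs from them in the order of its levels. Each is the 250 bases before the RefSeq transcription start, 5′ to 3′ on the gene's own strand, from GRCm38.p6, with capitals for matches to the motifs searched.
Gimap1, plus strand, chr6:48738797-48739046: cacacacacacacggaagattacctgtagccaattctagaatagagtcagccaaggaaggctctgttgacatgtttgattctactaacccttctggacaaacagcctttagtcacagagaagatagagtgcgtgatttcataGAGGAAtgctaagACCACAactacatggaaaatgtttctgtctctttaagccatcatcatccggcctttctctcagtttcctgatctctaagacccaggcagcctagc
Gimap6, minus strand, chr6:48708245-48708494: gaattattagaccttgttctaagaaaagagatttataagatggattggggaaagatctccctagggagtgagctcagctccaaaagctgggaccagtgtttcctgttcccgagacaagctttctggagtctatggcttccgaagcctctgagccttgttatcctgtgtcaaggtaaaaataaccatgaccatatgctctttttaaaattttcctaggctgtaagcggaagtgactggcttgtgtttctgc
Gimap9, plus strand, chr6:48675885-48676134: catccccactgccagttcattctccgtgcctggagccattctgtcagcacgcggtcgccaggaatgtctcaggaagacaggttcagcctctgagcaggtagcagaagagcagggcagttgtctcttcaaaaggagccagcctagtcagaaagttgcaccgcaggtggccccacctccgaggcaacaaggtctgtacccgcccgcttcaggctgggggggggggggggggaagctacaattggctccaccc

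All 7 members had a RefSeq upstream sequence. Both strands were searched for AGATAA, bound by GATA factors, for the RUNX motif TGTGGT, for CCGGAA of the ETS family and for the PU.1 motif GAGGAA. They occur in 10.25%, 14.18%, 12.22% and 23.13% of 27025 upstream windows of the same length. The Gimap1 window holds 1 RUNX match, in its reverse complement ACCACA, and 1 PU.1 match, with the RUNX match 95 bases before the start and no overlap between them. Of the other members, Gimap4 alone holds matches, 1 to RUNX and 2 to PU.1. The GC content is 44.4% for Gimap1, 43.6% for Gimap6 and 61.2% for Gimap9, and the median over all windows lies between the first pair and the last. Gimap9 has 8 CpG dinucleotides and Gimap1 and Gimap6 have 3 each, against a median of 6.

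Together the members gave 649 transcripts, spread over 261 of the 436 kept cells. Since each molecule is counted once near its 3′ end, counts of different genes are compared here without dividing by length. Gimap1, which lymphocytes need to survive, gave 324 transcripts or 49.9% of the members' total. Gimap6, which binds an Atg8 protein, gave 25.1%. Gimap9 followed with 63, Gimap5 with 53 and Gimap8, a member with several GTPase domains, with 34 transcripts.

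Gimap3, a membrane-anchored relative of Gimap5, was counted 11 times in 9 cells of 4 libraries. Gimap4, which in T cells affects the pace of programmed death, was counted 1 time in all, in a heterozygous plate2 library. In the other 7 libraries a count of 0 allows Gimap4 up to between 4.09 and 30.2 CPM (3 counts). These intervals and floors cover counting error only. No member transcript was found in the 19 kept wells that lie outside the barcodes of their own library.

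Gimap1 was highest in heterozygous HSC libraries, at 163.9 and 218.9 CPM, against 60.5 and 77.7 CPM in wild type HSC libraries. In plate2 the order was the other way, with 77.8 and 53.1 CPM in heterozygotes against 128.1 and 110.7 CPM in wild type. The libraries of the genotypes did not overlap in either set, as was so for 23.1% of all genes tested in the higher direction in HSC and 13.2% in the lower direction in plate2. The counts behind these levels were 40 and 44 in heterozygous HSC, 6 and 8 in wild type HSC, 49 and 36 in heterozygous plate2 and 94 and 47 in wild type plate2. Ordered by mean, heterozygous HSC (191.4 ± 38.9 CPM, SD, n = 2) came before wild type plate2 (119.4 ± 12.3 CPM). Wild type HSC (69.1 ± 12.2 CPM) and heterozygous plate2 (65.4 ± 17.4 CPM) came last, and these last groups overlapped.

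Gimap6 had its highest levels in the HSC libraries. It stood at 122.9 and 149.2 CPM in heterozygous HSC, against 110.8 and 87.4 CPM in wild type HSC. It stood at 46.03 and 13.3 CPM in heterozygous plate2, against 35.4 and 44.8 CPM in wild type plate2. In heterozygous plate2 library 1, a single well held 7 of the 29 Gimap6 transcripts. Every HSC library lay above every plate2 library, an order found for 18.3% of all genes tested. Its plate2 libraries overlapped between genotypes.

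Gimap5, the member tied to stem cell maintenance, stood at 49.2 and 54.7 CPM in heterozygous HSC, against 40.3 and 19.4 CPM in wild type HSC. In plate2 it had 6.35 and 2.95 CPM in heterozygotes, against 16.4 and 14.1 CPM in wild type. The lowest libraries were thus the heterozygous plate2 ones, which rest on 4 and 2 transcripts. The wild type HSC libraries also rest on 4 and 2 transcripts, and library 2 of them lies under its floor of 29.1 CPM (3 counts). Gimap8 had the same order of group means at lower counts. It stood at 24.6 and 54.7 CPM in heterozygous HSC, against 10.1 and 19.4 CPM in wild type HSC. It stood at 1.59 and 4.43 CPM in heterozygous plate2, against 5.45 and 14.1 CPM in wild type plate2, which overlaps wild type HSC.

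Gimap9 differed from these in its order of levels. It stood at 20.5 and 39.8 CPM in heterozygous HSC, against 10.1 and 0 CPM in wild type HSC. In plate2 it had 25.4 and 26.6 CPM in heterozygotes, against 14.99 and 9.42 CPM in wild type. All 4 heterozygous libraries therefore lay above all 4 wild type libraries. Among the 6690 genes tested, 1.54% stood apart in that direction over all 8 libraries. Gimap9 had too few counts to be one of them, and the share among genes of like counts was not computed. The wild type HSC floors of 30.2 and 29.1 CPM (3 counts) lie above heterozygous HSC library 1. In wild type HSC the level rests on 1 transcript in 2 libraries.

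**Figure D2:**
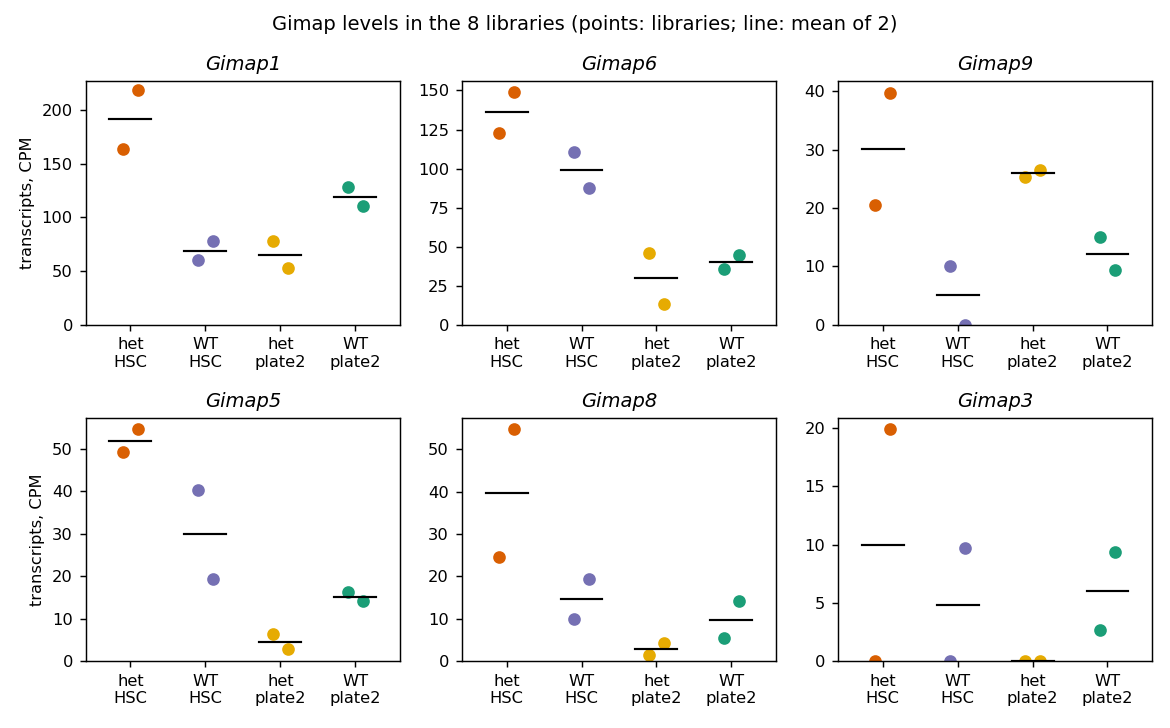
Level of 6 members in each library. The vertical axes give transcripts in CPM on each gene's own scale, points are libraries and black lines are means of 2, for heterozygous (het) HSC, wild type (WT) HSC, het plate2 and WT plate2. Gimap1 is higher in het than WT libraries in HSC and lower in plate2, while Gimap9 is higher in het libraries in both.

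The share of cells with at least 1 transcript was read as counted and at equal depth. In the HSC libraries 64.7% of heterozygous cells held a transcript of any member, against 36.5% of wild type cells. In plate2 the shares were 69.1% in heterozygotes and 66.4% in wild type. Kept wells outside a library's own barcodes numbered 3 and 0 in heterozygous plate2 and 11 and 4 in wild type plate2. None held a member transcript. They lower the plate2 shares of cells, more so in wild type, and the order of 69.1% and 66.4% may rest on them. Shares without these wells were not computed. After each cell was thinned to 1000 transcripts, the shares were 31.6% in heterozygous and 22.9% in wild type HSC cells, and 18.1% in heterozygous and 22.7% in wild type plate2 cells.

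For Gimap1, 41.2% of heterozygous HSC cells held a transcript, against 13.5% of wild type HSC cells. Thinned, these shares were 16.9% and 6.25%. In plate2 they were 45.7% of heterozygous and 54.5% of wild type cells as counted, and 8.51% and 15.5% thinned. The pooled thinned shares thus kept the order of the levels in both sets. By library the plate2 genotypes overlapped, at 14.6% and 2.17% in heterozygotes against 21.5% and 6.67% in wild type. A thinned share in a single library rests on few cells, such as 1 of 46 in heterozygous plate2 library 2.

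**Figure D3:**
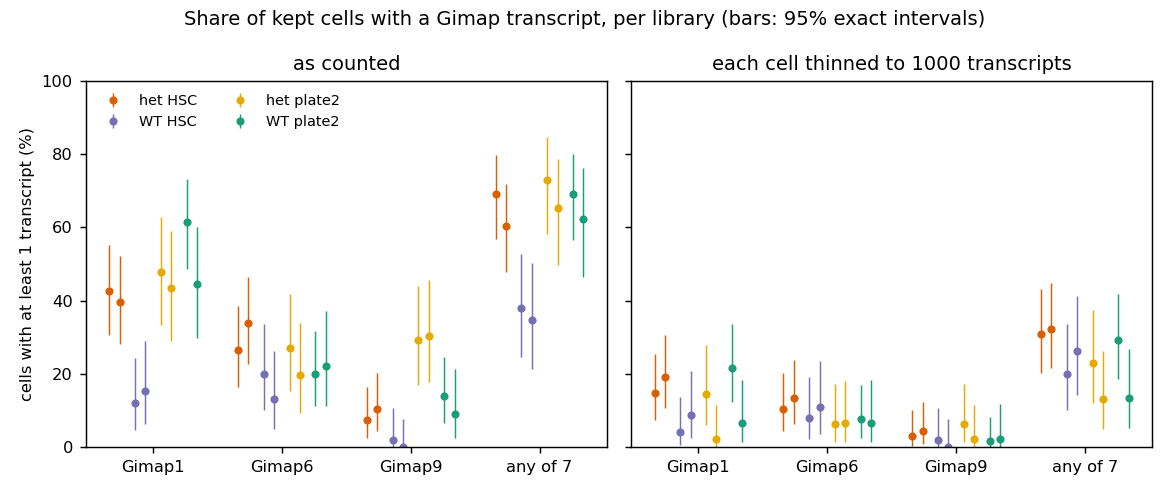
Share of kept cells with a transcript of Gimap1, Gimap6, Gimap9 or any of the 7 members. The vertical axis is percent of cells, each point is 1 library with its 95% exact (Clopper-Pearson) interval, and the right panel repeats the left after each cell was thinned to 1000 transcripts. For Gimap1 the het HSC libraries read 42.6% and 39.7% before thinning, above both WT HSC libraries.

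Members were tested in the fit over all genes, with counts summed over the kept cells of a library. Only Gimap1, Gimap5 and Gimap6 had enough counts to enter it. In sums over cells, fewer cells of a type and less RNA per cell cannot be told apart. Of these 3 genes, 0 passed in the comparison of heterozygous with wild type HSC libraries, where 0.0149% of 6690 genes did at an adjusted p under 0.05. Gimap1 came closest, at 1.38 ± 0.44 on the log2 scale (SE, 2 libraries per genotype, unadjusted p = 0.00498, adjusted p = 0.298 by edgeR's quasi-likelihood test with Benjamini-Hochberg adjustment). An unadjusted p under 0.05 was found for 10.8% of all genes. Gimap5 stood at 0.72 ± 0.75 and Gimap6 at 0.38 ± 0.50. DESeq2 gave no adjusted p for any member in this comparison or over both sets. In plate2 it gave one to Gimap1 alone, an adjusted p of 0.67, and Gimap1 had 0.592 for the difference of the effects. In the genotype comparisons of the edgeR fit with the low-count filter, an unadjusted p under 0.05 was reached only by the members for which one is given. Without wild type HSC library 1, the one with the most mature neutrophil markers, Gimap1 stood at 1.27 (edgeR adjusted p = 0.344) and Gimap5 at 1.38.

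With the 2 libraries of a genotype pooled, the makeup of the HSC wells differed between genotypes as well. In a clustering by genes other than the Gimap genes, the unnamed cluster 0 gave 46.01% of HSC transcripts in heterozygotes against 16.5% in wild type. It held 57.1% of the Gimap1 transcripts in heterozygotes against 28.6% in wild type. Within it Gimap1 was at 234.4 CPM in heterozygotes (48 transcripts) against 119.5 CPM in wild type (4 transcripts). Erythroid progenitor-like wells gave 13.1% of HSC transcripts in heterozygotes against 23.1% in wild type, and held 1 Gimap1 transcript in heterozygotes and 0 in wild type. By library the erythroid progenitor markers overlapped between genotypes. They summed to 2605 and 975.0 CPM in heterozygous HSC libraries 1 and 2, against 1390 and 2310 CPM in wild type HSC libraries 1 and 2. The part of this makeup in the HSC genotype values was not tested beyond these class levels.

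The HSC wells of the genotypes also differed in depth, so Gimap1 was set side by side within bands of depth. Among HSC wells of 1000 to 2000 transcripts, 9 of 27 heterozygous cells (33.3%) held Gimap1, against 11 of 69 wild type cells (15.9%). Between 2000 and 4000 transcripts, 41 of 85 heterozygous cells (48.2%) held it, against 2 of 24 wild type cells (8.33%). By library, the level in wells of 1000 to 2000 transcripts was 526.7 and 177.4 CPM in heterozygotes against 75.6 and 178.8 CPM in wild type, so the genotypes overlapped there. In wells of 2000 or more it was 142.97 and 224.1 CPM in heterozygotes against 43.1 and 0 CPM in wild type. With only wells of at least 2000 transcripts, the fitted log2 fold change was 3.24 (edgeR adjusted p = 0.0887). Wild type HSC library 2 then held no Gimap1 transcript in its 14 wells.

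In plate2, none of the 3 genes passed either (0 called, where 0.553% of all genes passed). Gimap1 stood at -1.01 ± 0.31 (unadjusted p = 0.00372, edgeR adjusted p = 0.311). Gimap5 stood at -1.81 ± 0.73 (unadjusted p = 0.0218, edgeR adjusted p = 0.813) and Gimap6 at -0.56 ± 0.45. For Gimap6 the sign depended on heterozygous plate2 library 2, without which the value was 0.088. An unadjusted p under 0.05 was found for 5.07% of all genes.

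Over both sets together, no member passed (0 called, against 0.135% of all genes), and Gimap1 stood at -0.15 ± 0.35. The difference between the plate2 and the HSC genotype effect was -2.39 ± 0.54 for Gimap1 on the log2 scale, with a 95% interval from -3.45 to -1.34. Its unadjusted p of 0.000211 was the fifth smallest of 6690 genes, and its edgeR adjusted p was 0.282. No gene passed in that comparison (0 called, 0% of 6690), while 9% of genes had an unadjusted p under 0.05. Without the low-count filter or without heterozygous HSC library 1, Gimap1 did pass (edgeR adjusted p = 0.0384 and 0.0365). Gimap5 gave a difference of -2.53 ± 1.04 (unadjusted p = 0.0236, edgeR adjusted p = 0.493) and Gimap6 of -0.94 ± 0.67. The Gimap6 value was -2.08 without heterozygous plate2 library 1 and -0.34 without heterozygous plate2 library 2.

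Gimap9 did not enter this fit because of its low counts. Without the low-count filter, its log2 fold change over both sets was 1.18 ± 0.50 (SE, n = 4 per genotype, unadjusted p = 0.0198, edgeR adjusted p = 0.903). That result does not pass, although the levels were higher in 4 of 4 heterozygous libraries than in any wild type library.

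**Figure D4:**
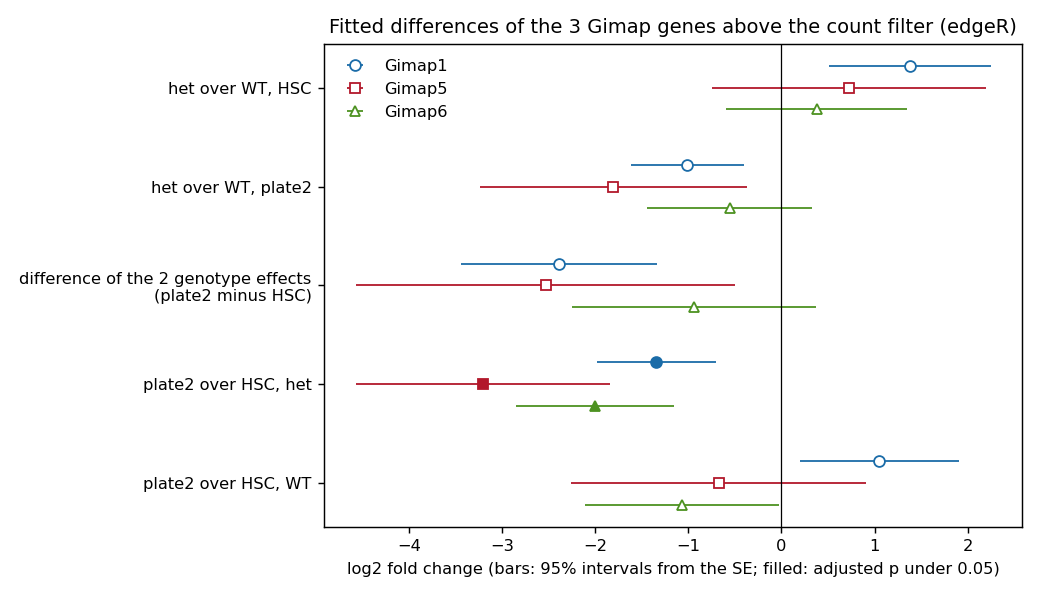
Fitted log2 fold changes of Gimap1, Gimap5 and Gimap6 in 5 comparisons. Points are edgeR estimates, bars are 95% intervals from the SE, and filled symbols have an adjusted p under 0.05. The het plate2 over het HSC values are filled for all 3 genes (all below 0), and no genotype comparison has a filled symbol.

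In heterozygotes the tested members were lower in plate2 than in HSC libraries. All 3 were lower at an adjusted p under 0.05, a call made for 22.2% of all genes in either direction and for 10.3% in the lower one. Gimap5 had a log2 fold change of -3.21 ± 0.70, Gimap6 of -2.003 ± 0.432 and Gimap1 of -1.34 ± 0.33 (edgeR adjusted p = 0.00266, 0.00257 and 0.00596, n = 2 per set). Heterozygous plate2 library 2 decides these calls, since without it the values were -2.77, -1.36 and -1.10 and the adjusted p values 0.0848, 0.0859 and 0.141. Without the low-count filter Gimap8 also passed, at -3.24 ± 0.80 (edgeR adjusted p = 0.00169), and Gimap9 stood at 0.11 ± 0.59. Thinned cells let only Gimap1 through the filter, at -0.88 (edgeR adjusted p = 0.386).

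In wild type, none of the 3 passed between plate2 and HSC (0 called, where 17.8% of all genes passed). Gimap1 stood at 1.05 ± 0.44 (unadjusted p = 0.0252, edgeR adjusted p = 0.0992). DESeq2 also called 0. Gimap6 stood at -1.07 ± 0.53 (edgeR adjusted p = 0.169) and Gimap5 at -0.68 ± 0.81. With only wells of at least 2000 transcripts, Gimap1 passed at 3.02 (edgeR adjusted p = 0.0225), a setting that leaves 2 and 0 Gimap1 transcripts in the wild type HSC libraries.

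Wells were grouped by their other genes, in a clustering that left out every Gimap gene, to see where in plate2 the members lay. Erythroid progenitor-like wells, from 3 clusters, numbered 91 of 204 plate2 wells. Klf1 and Car1 were among the markers of clusters 3 and 7, and Gata1, Car1 and Ermap were those of cluster 8. In heterozygotes most of these wells lay in clusters 3 and 7 (17 and 23 of 47), and in wild type in clusters 7 and 8 (18 and 17 of 44). Cluster 8 was shallow, with a median of 1165.5 transcripts over its 26 wells, and gave 7 of the 47 heterozygous wells. Erythroid progenitor-like wells held 54.7% of all plate2 transcripts and 22.3% of the member transcripts. Cluster 6, led by Ebf1, Yae1d1 and Mansc1 and left unnamed, had 55 plate2 wells, which held 22.1% of all transcripts and 55.8% of the member transcripts. Over whole libraries Ebf1 was counted 25 and 0 times in heterozygous plate2 and 1 and 6 times in wild type plate2. It therefore does not mark cluster 6 in every library. Any member was found in 54 of the 55 plate2 wells of cluster 6 (98.2%, median depth 9224 transcripts), against 48 of 91 erythroid progenitor-like wells (52.7%, median depth 13457). The latter include the shallow wells of cluster 8. Of all plate2 wells with 1000 to 2000 transcripts, 1 of 13 heterozygous and 1 of 22 wild type wells held a member.

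The members differed in how they were shared out. Cluster 6 held 83.1% of the plate2 transcripts of Gimap6, 79.2% of Gimap5 and 13 of 14 of Gimap8. It held 45.6% of Gimap1 and 34.7% of Gimap9. Erythroid progenitor-like wells held 51.02% of Gimap9, close to their 54.7% share of all transcripts, but 7.23% of Gimap6 and none of the 14 Gimap8 transcripts.

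Gimap1 also lay in cluster 5, an unnamed group of 27 plate2 wells led by clone-named gene models. These wells held 6.03% of all plate2 transcripts but 19.5% of Gimap1, at 295.8 CPM. Gimap6 there had 33.6 CPM and Gimap9 no transcript. The 24 neutrophil progenitor-like wells, with Mpo and Elane, held 42.8 CPM of Gimap1 and 7.55 CPM of Gimap6. In the HSC libraries, the 3 unnamed clusters 0, 1 and 4 held most wells. All members together had 542.0, 394.2 and 582.8 CPM there in heterozygotes (64, 32 and 28 wells), against 149.4, 275.1 and 451.5 CPM in wild type (22, 36 and 25 wells). Erythroid progenitor-like HSC wells had 120.03 CPM in heterozygotes (5 wells) and 21.4 CPM in wild type (6 wells).

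Within cluster 6 the genotypes overlapped for Gimap1, at 210.4 and 172.5 CPM in heterozygous plate2 libraries against 250.4 and 127.2 CPM in wild type. Within erythroid progenitor-like wells Gimap1 was at 28.3 and 30.2 CPM in heterozygotes, against 58.1 and 64.6 CPM in wild type. Gimap9 in the same wells was at 23.2 and 25.6 CPM in heterozygotes, against 11.6 and 5.38 CPM in wild type. The libraries did not overlap for either gene. In these wells the same was so for 14.7% of all genes tested in the lower direction, that of Gimap1, and for 22.2% in the higher one, that of Gimap9. Gimap9 itself had too few counts to be among the genes tested. These levels rest on 11 and 13 Gimap1 transcripts in heterozygotes against 20 and 12 in wild type, and on 9 and 11 Gimap9 transcripts against 4 and 1. The class itself differed between genotypes, with 7 of 47 heterozygous but 17 of 44 wild type wells from the shallow cluster 8.

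The makeup of plate2 moved with genotype as well. Erythroid progenitor-like wells gave 62.5% of transcripts in heterozygous plate2 libraries, against 45.8% in wild type, and cluster 6 gave 15.97% in heterozygotes against 29.1% in wild type. The heterozygous erythroid progenitor-like wells had a median of 15639 transcripts, against 7503.5 in wild type. Mature neutrophil markers summed to 380.9 and 113.6 CPM in heterozygous plate2 libraries, against 2716 and 2156 CPM in wild type. Mature neutrophil-like wells, all 6 of them wild type in plate2, held 4 of the wild type plate2 transcripts of Gimap1, or 2.84%. The part of well makeup in the plate2 genotype difference was not tested beyond these class levels.

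**Figure D5:**
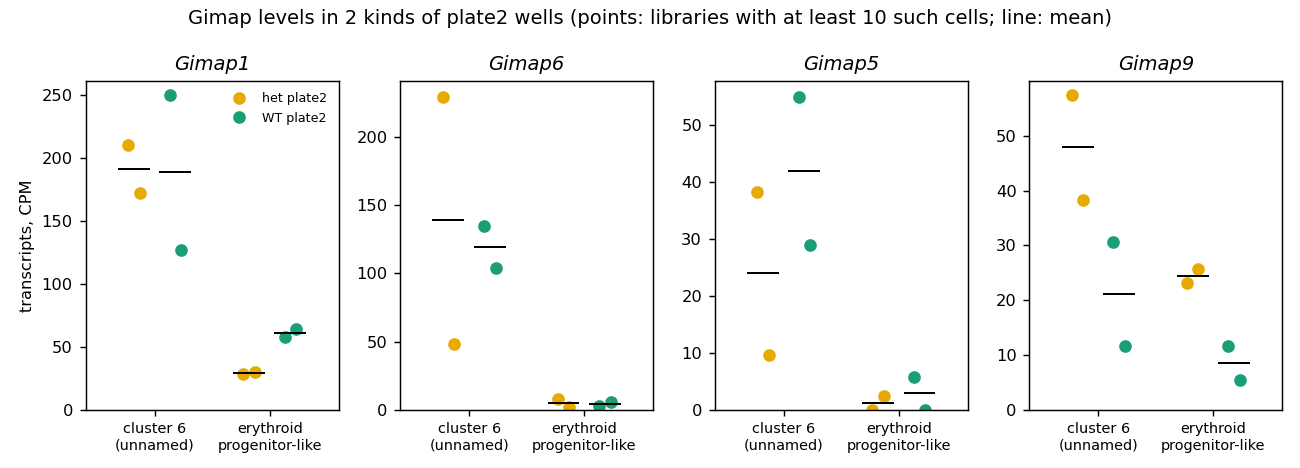
Levels of Gimap1, Gimap6, Gimap5 and Gimap9 in plate2 wells of cluster 6 and of the erythroid progenitor-like class. The vertical axes give CPM on each gene's own scale, points are libraries and lines their mean, with het plate2 left of WT plate2. Gimap6 and Gimap5 have higher levels in cluster 6, which held 83.1% and 79.2% of their plate2 transcripts, than in erythroid progenitor-like wells.

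The overlap of Gimap1 and Gimap6 in wells was read as counted and at equal depth. Over all kept cells, 33.7% of the cells with Gimap1 also held Gimap6 (58 cells), against 16.7% of the cells without Gimap1 (44 cells). The cells with Gimap1 were deeper, with a median of 6140.5 against 2525.5 transcripts. Thinned to equal depth, 10 of 54 cells with Gimap1 (18.5%) held Gimap6, against 29 of 382 without it (7.59%). In wild type plate2 the order was the other way, with 1 of 17 (5.88%) against 7 of 93 (7.53%). Of the other 4 pairs read, Gimap1 with Gimap5 and with Gimap9 rested on 3 and 4 shared cells after thinning. The remaining pairs had close shares, with Gimap6 in 8.33% of the cells with Gimap5 and in 8.96% of those without, and Gimap9 in 2.56% of the cells with Gimap6 and in 2.77% of those without. No cell held more than 4 different members.

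The genes around the members were read beside them. Of 11 protein-coding neighbours within 200 kb of the cluster, 4 had enough counts, and none passed between genotypes in either set. Tmem176b and Tmem176a, which encode membrane proteins, were both lower in plate2 than in HSC libraries. Tmem176b stood at -2.39 ± 0.30 in heterozygotes and -1.94 ± 0.31 in wild type, and Tmem176a at -1.95 ± 0.41 and -1.80 ± 0.44 in the same order of genotypes (edgeR adjusted p from 1.96e-05 to 0.00807). The median log2 fold change of all genes was 0.05 in heterozygotes and 0.08 in wild type.

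Among genes tied to the family, the Atg8 system of autophagy had 7 of 9 members tested. In plate2 against HSC, 3 were lower and 0 higher in heterozygotes, and 4 lower and 0 higher in wild type. Of all genes, 10.3% were called lower in heterozygotes and 8.21% in wild type. Map1lc3b stood at -1.36 ± 0.29 in heterozygotes and -1.05 ± 0.31 in wild type, and Gabarap at -0.96 ± 0.28 and -0.99 ± 0.31. Of 8 Bcl-2 family genes, only the survival gene Mcl1 passed, at -0.96 ± 0.29 in heterozygotes and -1.07 ± 0.32 in wild type (edgeR adjusted p = 0.0209 and 0.0256). Of 13 other immune GTPase genes 6 were tested. In plate2 against HSC, 3 were lower and 1 higher in heterozygotes, and 3 lower and 0 higher in wild type. Gbp7, a guanylate-binding protein, was lower in both genotypes at -1.57 ± 0.34 and -1.93 ± 0.34. Irgm1, of the interferon-induced GTPases, went the other way in heterozygotes at 2.09 ± 0.75 (edgeR adjusted p = 0.0483).

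None of these genes passed between genotypes in the HSC or the plate2 libraries. Median log2 fold changes there were 0.03 and -0.06 for Atg8 genes and -0.29 and -0.00044 for Bcl-2 genes. Other immune GTPase genes had medians of -0.18 and -0.51. The medians of all genes were 0.03 and -0.00058. Stem cell markers had 12 of 15 members tested, and between plate2 and HSC libraries 10 fell and 0 rose in heterozygotes, while 6 fell and Gata2 rose in wild type. Ly6a, which encodes Sca-1 and was part of the HSC gate, stood at -4.22 ± 0.37 in heterozygotes and -3.85 ± 0.42 in wild type, and the stem cell factor gene Hlf at -2.17 ± 0.31 and -1.69 ± 0.31. No stem cell marker passed between genotypes. Their median genotype log2 fold change was 0.35 in HSC (9 of 12 above 0) and -0.80 in plate2 (1 of 12 above 0). Among 11 lymphoid priming genes, 5 were tested and 0 passed between genotypes, with medians of 0.47 in HSC and -0.53 in plate2. Cd27 was lower in plate2 in both genotypes (-2.42 ± 0.31 in heterozygotes and -2.003 ± 0.329 in wild type), and Flt3 in heterozygotes (-2.15 ± 0.55).

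T and NK cells express Gimap genes strongly, so their markers were read in every library. Of 14 markers 5 had rows, namely Cd3d, Cd4, Lck, Ccr7 and Nkg7, and they summed to between 16.4 and 77.8 CPM. Nkg7 was counted 47 and 18 times in heterozygous plate2 and 28 and 7 times in wild type plate2 libraries. It made up most of the sum in both heterozygous plate2 libraries and in wild type plate2 library 1, so the sum does not follow T cell genes alone. Cd3d was at 0 in all 4 heterozygous and both wild type HSC libraries and was counted 1 time in each wild type plate2 library. The 9 B cell markers, Ebf1 among them, summed to between 54.6 and 115.9 CPM in heterozygous plate2 and to 54.5 and 68.3 CPM in wild type plate2 libraries. In the HSC libraries they summed to 36.9 and 64.7 CPM in heterozygotes, against 20.2 and 29.1 CPM in wild type.

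Over the 8 libraries, the genes whose level ran most like that of the summed members were Ifi203, Ulk1, Phf21a, Pim1, Spns2, Atp2b4, Slc25a36 and Cdk19. Pearson's r on log2(CPM + 1) lay between 0.923 and 0.947, among 3231 genes of at least 50 CPM, and the libraries share plate set, depth and genotype. Chosen for this likeness, these 8 genes also had genotype log2 fold changes above 0 in HSC (0.30 to 1.29) and below 0 in plate2 (-1.06 to -0.27). The summed members had 381.0 and 537.3 CPM in heterozygous HSC, 231.7 and 213.6 CPM in wild type HSC, 158.7 and 100.3 CPM in heterozygous plate2 and 203.0 and 202.6 CPM in wild type plate2. Ifi203, an interferon-inducible gene, had 249.9 and 432.8 CPM in heterozygous HSC, 181.4 and 126.2 CPM in wild type HSC, 87.3 and 87.04 CPM in heterozygous plate2 and 110.4 and 136.6 CPM in wild type plate2.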

How the data were processed

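RNA of sorted mouse bone marrow progenitor cells was read with CEL-Seq2, per the labels' protocols. The deposited numbers are estimated counts (expected counts in unit), 1 per gene and barcode and unscaled for depth. A test on the files showed each to be the natural log of 4096/(4096 - k), multiplied by 4096, with k the whole count of identifiers. BWA 0.6.2-r126 and mm10 are named per the submitters' processing notes. Values were rounded to whole numbers and 70 spike-in rows left out. Cells with at least 1000 transcripts over gene names were kept, 436 of 1536 barcodes, and summed per library. No doublet caller was run on these sorted wells. Sums went into edgeR 4.0.16 under R 4.3.3 (TMM, filterByExpr, quasi-likelihood, two-sided, Benjamini-Hochberg over 6690 genes). All 8 libraries entered each fit, as 4 groups or, over both sets, genotype with plate set as a term. The fit was tested on simulated data.

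The labels give groups by title. Libraries of a group differed beyond counting error (chi-square over degrees of freedom 2.20 to 4.47). Shares have exact Clopper-Pearson intervals of 95%. Clusters used scanpy 1.11.5 and igraph 0.11.9 (2000 variable genes, 15 components, 15 neighbours, Leiden resolution 1). A cluster was named when at least 3 markers of a type were among its 50 leading genes and in at least 50% of its cells. No other type could have as many. A cluster much shallower than its libraries also needed a marker of the type among its very first leading genes. Coordinates came from GENCODE vM21 and upstream sequences from RefSeq (GRCm38.p6). Members and gene lists were chosen with earlier results of these data known. Named genes are the members, the 8 genes most like their sum over libraries, and, from each list, those that pass plus up to 3 of smallest p, of which the text gives examples. Alternatives were RLE size factors, DESeq2 1.42.0, a fit without the low-count filter, a minimum of 2000 transcripts, all barcodes, own barcodes only, cells thinned to 1000 transcripts (seed 1), a replicate block and leaving out each library.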

Additional observations from a re-analysis of the deposited data

Results flagged for a closer look

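The genotype effect of Gimap1 and Gimap5 goes opposite ways in the HSC and plate2 libraries, without overlap of the libraries in either set. Of all genes tested, 23.1% stood apart in the higher direction in HSC and 13.2% in the lower direction in plate2. In HSC Gimap5 stood at 0.72 ± 0.75. Its levels rest on 4 and 2 transcripts in wild type HSC and on 4 and 2 in heterozygous plate2 libraries. In wild type HSC library 2 its 19.4 CPM lay under the floor of 29.1 CPM (3 counts). The share of all genes with both orders at once was not computed. The difference of the effects, plate2 minus HSC, was -2.39 ± 0.54 on the log2 scale for Gimap1 (SE, edgeR adjusted p = 0.282). For Gimap5 it was -2.53 ± 1.04 (edgeR adjusted p = 0.493). Neither passed over all genes. The order is not particular to these genes. Medians of the tested stem cell markers (0.35 and -0.80) and lymphoid priming genes (0.47 and -0.53) also went opposite ways in HSC and plate2. No cause was tested.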

How the results depend on the processing

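Of the counts of members past the threshold computed under alternatives, 82 equalled the count given above and 11 did not. For the difference of genotype effects the count became 1 with no low-count filter, and it ran from 0 to 1 when each library was left out. For wild type plate2 against HSC it became 1 with at least 2000 transcripts per cell. For heterozygous plate2 against HSC it became 0 when cells were thinned to 1000 transcripts, where fewer genes were tested. It became 4 with no low-count filter, and it ran from 0 to 4 when each library was left out. Where leaving out a library leaves 1 in a group, that one is assumed to vary like the others.

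The sign of single genes turned in 9 of the alternatives. For genotype in plate2, Gimap6 was 0.088 without heterozygous plate2 library 2. Over both sets Gimap1 was 0.016 with DESeq2 and 0.38 with thinned cells. It was 0.17 without wild type plate2 library 1, 0.08 without heterozygous plate2 library 1 and 0.31 without heterozygous plate2 library 2. Gimap6 was 0.03 without wild type plate2 library 2 and 0.27 without heterozygous plate2 library 2. For wild type plate2 against HSC, Gimap5 was 1.07 with at least 2000 transcripts per cell. Over the left-out libraries, Gimap6 in plate2 ran from -1.67 to 0.088, and over both sets Gimap1 ran from -0.41 to 0.31 and Gimap6 from -0.36 to 0.27. The causes were not tested.

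The replicate block for HSC library numbers gave Gimap1 1.39 in HSC, -0.16 over both sets and -2.40 for the difference, and changed no call. The numbers were not shown to pair the libraries (r = -0.09 across 6690 genes, 2 pairs). RLE scaling moved the median of all genes by at most 0.03. Depth limits Gimap3, Gimap4, Gimap8 and Gimap9, which had too few counts for the fit.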
